A study of Mus musculus with 13 samples.

Results

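The 10 genes described here are used to place a carcinoma cell between an epithelial and a mesenchymal state, and were measured in 13 breast tumours grown in mice. They were taken as 13 listed human transcripts, of 244939 in each deposited table: 1 each of CDH1, EPCAM, KRT18, KRT19, CDH2, SNAI1 and TWIST1, and 2 each of VIM, SNAI2 and ZEB1. All 13 IDs were found. The members were chosen by gene identity and not by a cut on measured values, but with earlier results of these data known. The tables hold transcript IDs without gene names, so the pairing of ID and name is that of the list, and other transcripts of these genes were not analysed here. A value below is therefore that of the listed transcripts, not of the whole gene.

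The tumours grew for 14 days from cells of MDA-MB-231, a widely used human line of triple-negative breast cancer. The cells were injected into a mammary gland of NSG females aged 12 to 13 weeks. The labels call these hosts immunocompetent, although NSG mice are known for lacking mature lymphocytes. Of the libraries, 7 came from mice gavaged daily with a vehicle of polyethylene glycol (60%) and DMSO (40%). The other 6 came from mice gavaged daily with OCA at 30 mg/kg in that vehicle. OCA is obeticholic acid, a synthetic bile acid and an agonist of the receptor FXR. Both groups carried the same cell line, which is 1 established line, and host cells in the tumour were not separated from it.

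Epithelial cells adhere through the cadherin CDH1 and the adhesion molecule EPCAM, and their cytoskeleton is built on keratins such as KRT18 and KRT19. Mesenchymal cells use vimentin (VIM) as their main intermediate filament and often N-cadherin (CDH2) in place of CDH1. SNAI1, SNAI2, TWIST1 and ZEB1 are transcription factors known to repress CDH1 and other epithelial genes during epithelial-mesenchymal transition. MDA-MB-231 is commonly used as a line with mesenchymal traits.

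Total estimated reads ranged from 34015674 to 50596490 per library, and the 3 libraries under 40000000 were vehicle replicates 2, 3 and 5. Vehicle replicates 1 and 4 and OCA replicate 2 stood apart from the other 10 on the first principal component of all tested transcripts, which held 14.4% of the variance. The library labels fall into a lower number series (4340 to 4351, 3 vehicle and 4 OCA) and an upper one (4371 to 4385, 4 vehicle and 2 OCA). What the numbers record is not given. Libraries were taken as separate animals, because each has its own label number and the protocols count mice. Those counts are 8 vehicle and 7 OCA mice, more than the 7 vehicle and 6 OCA libraries.

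The markers covered a very wide range of levels, and the range did not follow the division into epithelial and mesenchymal genes. Levels between genes were compared in TPM, the deposited transcript abundance per length, scaled to the same total in each library, which takes transcript length into account. VIM was highest at 4761 ± 738 TPM (SD, n = 13), and its main transcript ranked number 14 of all 244939 by mean TPM. KRT19 followed at 772 ± 137 TPM (SD, n = 13, rank 122 of all transcripts) and KRT18 at 213 ± 40.6 TPM (SD, n = 13, rank 479). The ranges of these 3 genes did not overlap each other or those of the genes under them, so VIM exceeded KRT19, and KRT19 exceeded KRT18, in all 13 libraries. Keratin transcripts of an epithelial type were thus abundant beside vimentin.

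With listed transcripts summed, ZEB1 and SNAI2 came next, at 19.9 ± 2.69 and 18.5 ± 5.35 TPM (SD, n = 13 for both). ZEB1 was higher in 8 of 13 libraries, so the sums could not be ordered beyond their spread. The closeness depended on the short SNAI2 transcript ENST00000396822, with a mean of 7.25 TPM. Alone, ZEB1 ENST00000320985 had a mean of 19.3 TPM and SNAI2 ENST00000020945 a mean of 11.2 TPM. EPCAM measured 9.18 ± 2.21 TPM (SD, n = 13) and was under the summed SNAI2 in all 13 libraries, although their ranges overlapped. Against SNAI2 ENST00000020945 alone, EPCAM was higher in vehicle replicates 3 and 6 and OCA replicate 2 and lower in the other libraries. The lowest genes were SNAI1 at 0.953 ± 0.410 TPM, CDH1 at 0.385 ± 0.160 TPM and CDH2 at 0.125 ± 0.0964 TPM (SD, n = 13 for each). Neighbours among these 3 had overlapping ranges, with SNAI1 above CDH1 in 11 and CDH1 above CDH2 in 12 of 13 libraries. The listed TWIST1 transcript had 0 reads in all 13 libraries, which allows up to 3 reads, or 0.0593 to 0.0882 CPM (counts scaled by the library total), in each. Floors of this kind cover counting error only. Both cadherins were therefore at the low end, CDH1 as well as CDH2.

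**Figure D1:**
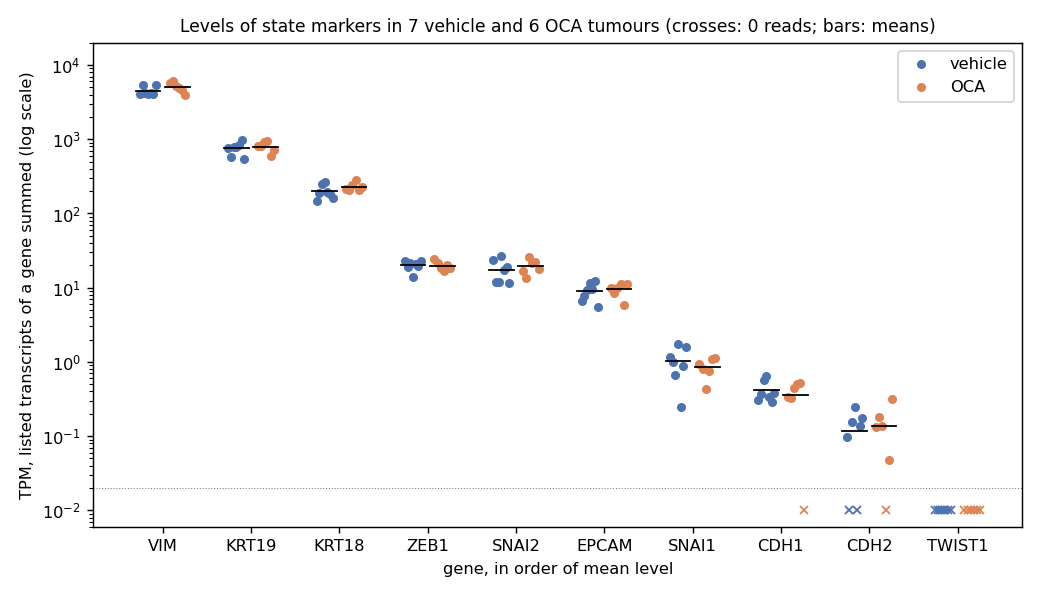
Level of each gene in TPM on a log axis, with the listed transcripts of a gene summed; each point is 1 tumour library, horizontal bars are group means and crosses under the dotted line are libraries with 0 reads. VIM, KRT19 and KRT18 sit apart from each other and from the rest, CDH1 and CDH2 sit near the bottom, and vehicle and OCA points overlap for each gene with reads.

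Whether an FXR agonist alters these state markers in the tumour was addressed by comparing OCA with vehicle. No member passed the threshold, and none had groups that did not overlap. Of the 13 transcripts, 12 had enough reads to be tested and 0 had an adjusted p under 0.05 by edgeR's quasi-likelihood test with Benjamini-Hochberg adjustment, against 0 of all 74973 transcripts tested (0%). At an unadjusted p under 0.05 there were 0 of 12 members, against 2.77% of all transcripts. Limma-voom called 0 of 12 members and 0% of all transcripts, and DESeq2 called 0 of 12 members and 0.370% of the 110448 transcripts to which it gave an adjusted p. The count of members called by edgeR was again 0 without vehicle replicates 2, 3 and 5 (0% of all transcripts) and without the 3 libraries apart on the first component (0.00136% of all). Groups that did not overlap were found in 0 of 12 members and in 0.123% of all transcripts. The estimate lay above 0 in 9 and under 0 in 3 members, with a median log2 fold change of 0.14 beside 0.01 over all transcripts, and 51.0% of all transcripts lay above 0. The adjusted p of every tested member was 1 by edgeR. In a bulk tumour, fewer cells of a type and less RNA per cell cannot be told apart.

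The precision of these estimates differed greatly between members. For 7 of the 12 tested transcripts the 95% interval of the fold lay between 0.5 and 2, and for 5 of them it also lay within 1.5-fold in either direction. These 5 were KRT18, KRT19, EPCAM and the main transcripts of VIM and ZEB1, and the other 2 were both SNAI2 transcripts. For CDH1, CDH2, SNAI1 and the minor transcripts of VIM and ZEB1 the interval reached beyond 2-fold on at least 1 side. For SNAI1 it took in a 2-fold lower but not a 2-fold higher level in OCA tumours, and for the other 4 it took in both.

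**Figure D2:**
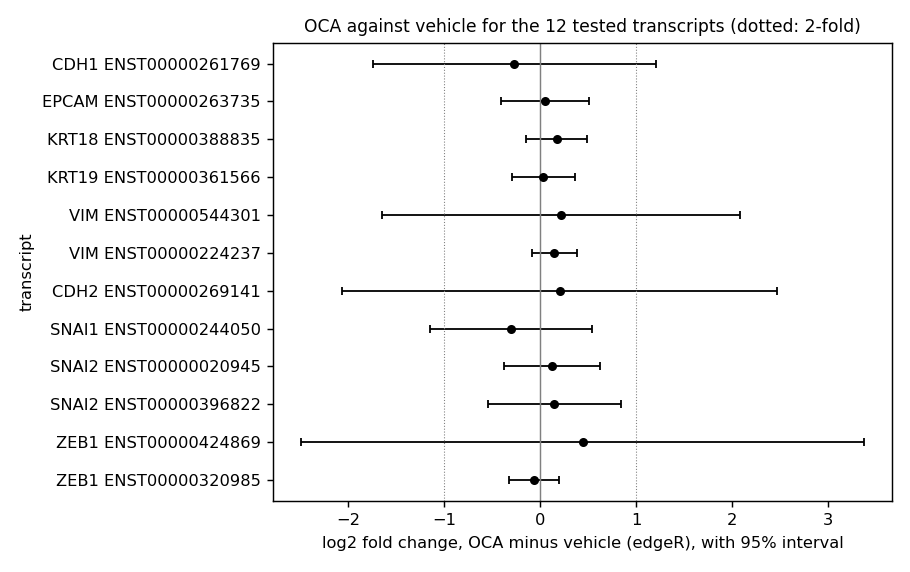
Log2 fold change of OCA minus vehicle for the 12 tested transcripts by edgeR, with bars for the 95% interval and dotted lines at a 2-fold difference. Each interval includes 0, and those of VIM ENST00000224237 and ZEB1 ENST00000320985 are the narrowest while that of ZEB1 ENST00000424869 is the widest.

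KRT18, a keratin that pairs with KRT8 in simple epithelia, was displaced towards higher values in OCA tumours by less than its spread. Its level in vehicle tumours was 147 TPM at the lowest, 186 at the median and 268 at the highest, and in OCA tumours 205, 220 and 287 TPM. In TPM all 6 OCA libraries lay above the vehicle median and 5 vehicle libraries lay below every OCA library, but the other 2 fell within the OCA range. In CPM 4 vehicle libraries lay below every OCA library and 3 fell within the OCA range. The log2 fold change was 0.17 (SE 0.14, edgeR unadjusted p = 0.259, adjusted p = 1), a fold of 1.13 with a 95% interval of 0.906 to 1.40. Within the label series the means were 204 TPM in vehicle and 238 in OCA in the lower series, and 195 and 215 TPM in the upper one.

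KRT19, a type I keratin of simple epithelia like KRT18, ran from 534 through a median of 784 to 975 TPM in vehicle and from 593 through 807 to 934 TPM in OCA tumours. The OCA range fell wholly inside the vehicle range. Its fold was 1.02 (95% interval 0.814 to 1.29, edgeR adjusted p = 1). The keratins did not keep a fixed ratio, since KRT19 was 2.88 to 5.41 times KRT18 in TPM over the 13 libraries, with medians of 3.26 in vehicle and 3.48 in OCA tumours.

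The adhesion genes were far lower. EPCAM, an adhesion molecule of epithelia and carcinomas, ran from 5.47 through a median of 9.16 to 12.3 TPM in vehicle and from 5.90 through 10.0 to 11.3 TPM in OCA tumours, with the OCA range again inside that of vehicle. Its fold was 1.03 (95% interval 0.752 to 1.42, edgeR adjusted p = 1). CDH1, the adherens junction cadherin of epithelia, rested on 54.8 to 148 estimated reads in the 7 vehicle libraries and on 0 to 113 in the 6 OCA libraries. In TPM it ran from 0.284 through a median of 0.373 to 0.646 in vehicle and from 0 through 0.390 to 0.514 in OCA tumours. OCA replicate 6 was the library at 0, while the other 5 OCA libraries fell within the vehicle range. Its fold of 0.829 had a 95% interval from 0.299 to 2.30 (edgeR adjusted p = 1), and without OCA replicate 6 its log2 fold change was -0.01. The label series gave opposite signs, with CDH1 means of 0.438 TPM in vehicle and 0.449 in OCA in the lower series, and 0.395 and 0.161 TPM in the upper one, which holds OCA replicate 6.

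VIM, the intermediate filament protein of mesenchymal cells, took 0.648% to 1.005% of all reads of a library. Nearly all of these reads lay on ENST00000224237, of 1868 bases, which ran from 4026 through a median of 4234 to 5437 TPM in vehicle and from 3980 through 5056 to 6068 TPM in OCA tumours. Of the OCA libraries, 2 lay above every vehicle library and 1 below every one, so the vehicle range fell inside a wider OCA range. The log2 fold change was 0.15 (SE 0.11, edgeR unadjusted p = 0.200, adjusted p = 1), a fold of 1.11 with a 95% interval of 0.941 to 1.30. In the lower label series the means of both VIM transcripts together were 4501 TPM in vehicle and 5115 in OCA, and in the upper series 4470 and 5025 TPM. Without the 3 libraries apart on the first component the log2 fold change was 0.03. The other VIM transcript, ENST00000544301, had 0 to 102 estimated reads and made up 0% to 0.0358% of the reads of both.

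CDH2, which encodes N-cadherin, a cadherin of mesenchymal and neural cells, had the lowest level of the genes with reads. Its transcript had 0 reads in 2 vehicle libraries and 1 OCA library and at most 53.0 in any, with medians of 0.135 TPM in both groups. All vehicle libraries fell within the OCA range, with 1 OCA library above every vehicle library. The fold of 1.15 had a 95% interval from 0.240 to 5.54 (edgeR adjusted p = 1). The label series gave opposite signs, with means of 0.185 TPM in vehicle and 0.0795 in OCA in the lower series, and 0.0633 and 0.248 TPM in the upper one.

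The ratio of VIM to KRT18 and KRT19 together gives the balance of the abundant filament transcripts within a library. It ran from 3.49 through a median of 4.10 to 7.79 in vehicle and from 4.05 through 5.10 to 5.94 in OCA tumours. The OCA ratios lay inside the vehicle range, and VIM exceeded both keratins together in every library. The 4 epithelial genes summed to 704 to 1168 TPM in vehicle and 806 to 1232 TPM in OCA tumours, nearly all of it keratin.

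Among the transcription factors, ZEB1 is a zinc finger repressor of CDH1. Its main transcript ENST00000320985, of 5423 bases, ran from 13.1 through a median of 20.6 to 21.9 TPM in vehicle and from 16.5 through 19.1 to 23.3 TPM in OCA tumours. Vehicle replicate 4 was the lowest of the 13 libraries and OCA replicate 1 the highest. The fold was 0.957 with a 95% interval of 0.800 to 1.15 (log2 change -0.06 with SE 0.12, adjusted p = 1 by edgeR). With both ZEB1 transcripts summed the log2 change was -0.05, with an SE of 0.12 and an adjusted p of 1 by edgeR.

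SNAI2, the Slug repressor, was about as abundant as ZEB1 only with its listed transcripts summed, and spread more widely. Its transcript ENST00000020945 ran from 6.34 through a median of 10.7 to 17.6 TPM in vehicle and from 7.34 through 12.1 to 17.0 TPM in OCA tumours, with the OCA range inside that of vehicle. The fold was 1.09 with a 95% interval of 0.773 to 1.54 (edgeR adjusted p = 1). The shorter transcript ENST00000396822, of 626 bases, ran from 2.49 through 6.53 to 11.8 TPM in vehicle and from 5.67 through 7.50 to 10.3 TPM in OCA tumours. Summed, both SNAI2 transcripts gave a log2 change of 0.13, with an SE of 0.22 and an adjusted p of 1 by edgeR. The estimate for ENST00000020945 depended on the libraries that stood apart. Without vehicle replicates 1 and 4 and OCA replicate 2 its log2 fold change was 0.46 (edgeR unadjusted p = 0.0310, adjusted p = 1), and without the 3 shallower vehicle libraries it was -0.01. Both choices were made after seeing the data. The libraries left out in the first hold its highest vehicle value, 35.1 CPM in replicate 4, and its lowest OCA value, 14.4 CPM in replicate 2. In that fit 2495 of all 73488 transcripts had an unadjusted p under 0.05. Among 306 alternative values for members, this was the only 1 with such a p.

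SNAI1, the Snail repressor and the close relative of SNAI2, had 13.0 to 126 estimated reads. It ran from 0.249 through a median of 1.01 to 1.72 TPM in vehicle and from 0.432 through 0.866 to 1.11 TPM in OCA tumours. In vehicle, 3 libraries lay above every OCA library and 1 lay below every one. The fold of 0.811 had a 95% interval from 0.452 to 1.46 (edgeR adjusted p = 1). The sign differed between label series, with means of 1.39 TPM in vehicle and 0.806 in OCA in the lower series, and 0.769 and 0.955 TPM in the upper one. With its listed transcripts summed, SNAI2 was 7.20 to 69.5 times SNAI1 in TPM over the 13 libraries. The highest ratio was that of vehicle replicate 5, where SNAI1 had 13.0 estimated reads.

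The division of reads between the 2 listed transcripts of a gene did not differ between treatments beyond the spread of libraries. For SNAI2, ENST00000396822 held 11.1% ± 3.53 of the reads of both in vehicle (SD, n = 7) and 11.5% ± 2.71 in OCA tumours (SD, n = 6), a difference of 0.345 percentage points (two-sided exact permutation test over 1716 splits, p = 0.850, adjusted p = 0.850 over 3 genes). Per length this short transcript weighed more, at 38.3% ± 9.12 and 39.5% ± 6.46 of the TPM of both (SD, n = 7 and 6). The deposited effective length, shorter than the transcript, was the same in every library, at 377 bases for this transcript of 626 bases. How far the TPM shares depend on that length was not tested. For ZEB1, ENST00000424869, of 5937 bases, held 2.94% ± 2.85 in vehicle (SD, n = 7) and 3.82% ± 3.63 in OCA (SD, n = 6), a difference of 0.877 points (exact permutation p = 0.633, adjusted p = 0.850). Here the libraries fell into 4 with 0 reads of that transcript, 2 in each group, and 9 with 73.7 to 403 reads.

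The ZEB1 share also changed sign with the label series. OCA minus vehicle was -2.62 points in the lower series (exact permutation p = 0.257) and 5.87 points in the upper series (exact permutation p = 0.0667, the smallest that 2 against 4 libraries allow). For VIM the minor transcript held 0.0114% ± 0.00746 in vehicle (SD, n = 7) and 0.0137% ± 0.0138 in OCA (SD, n = 6; exact permutation p = 0.714, adjusted p = 0.850). Within series the VIM difference was -0.00391 points in the lower (exact permutation p = 0.600) and 0.0107 in the upper (exact permutation p = 0.400), and the SNAI2 difference was 0.0521 (exact permutation p = 1) and 0.311 points (exact permutation p = 0.933). Reads that match both transcripts of a gene were divided by the authors' estimation, whose error was not measured here.

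**Figure D3:**
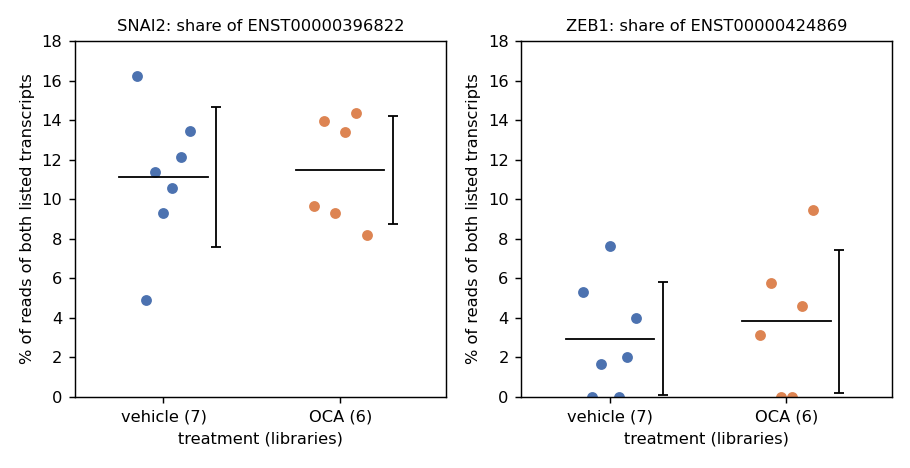
Share of ENST00000396822 in the reads of both listed SNAI2 transcripts (left) and of ENST00000424869 in those of ZEB1 (right), in percent; points are libraries, long bars group means and error bars 1 SD. SNAI2 libraries spread from 4.90% to 16.2% with both groups overlapping, and 4 ZEB1 libraries, 2 in each group, lie at 0%.

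Spread between libraries of a group was then set beside that of other transcripts. The fitted coefficient of variation, from edgeR's dispersion, was 15.4% for VIM ENST00000224237, 17.4% for ZEB1 ENST00000320985, 19.8% for KRT18 and 20.5% for KRT19, against a median of 20.9% over the 14710 transcripts whose mean reached 10 CPM. EPCAM at 29.8% and SNAI2 ENST00000020945 at 30.6% were above that median. The scarce transcripts varied most, from 44.8% for SNAI2 ENST00000396822 and 52.0% for SNAI1 through 78.3% for CDH1 to 127% for CDH2 and 186% for ZEB1 ENST00000424869. These values exceeded the counting error at the mean estimated reads, which was 8.86% for SNAI2 ENST00000396822, 12.5% for SNAI1, 11.2% for CDH1, 21.3% for CDH2 and 7.82% for ZEB1 ENST00000424869. The fitted spread includes libraries at 0 reads, 1 for CDH1, 3 for CDH2 and 4 for ZEB1 ENST00000424869. For CDH1 the observed coefficient of variation in CPM was 33.9% in vehicle, without a library at 0, and 53.7% in OCA tumours.

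The 8 genes whose mean reached 1 CPM were also compared with each other across the 13 libraries of both groups, as log2(CPM + 0.5), in 28 pairs. One pair passed after adjustment. EPCAM and KRT19 correlated at Pearson's r = 0.81 (permutation test, p = 0.00119, adjusted p = 0.0333 over 28 pairs), with Spearman's rho at 0.64 (permutation p = 0.0217, adjusted p = 0.302). Without the 2 libraries farthest from the EPCAM median r was 0.58. Leaving out extreme libraries narrows the range of EPCAM, so this fall cannot show whether the relation rests on them. It was 0.96 in the lower and 0.28 in the upper label series, 0.84 within vehicle and 0.74 within OCA libraries. With 1 library left out at a time r stayed between 0.72 and 0.87, but the adjusted p missed 0.05 in 7 of 13 cases, with the highest, 0.263, without vehicle replicate 7. Scaled by library totals alone, the adjusted p was 0.0790.

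A further 3 pairs had an unadjusted p under 0.05 for Pearson's r and failed the adjustment, and 1 more, KRT19 and SNAI1, did so for Spearman's rho alone. KRT19 and SNAI1 gave rho -0.71 (permutation p = 0.00793, adjusted p = 0.222), the smallest Spearman p of the 28 pairs, with r = -0.51 (permutation p = 0.0696, adjusted p = 0.325), -0.52 and -0.66 in the lower and upper series, and -0.39 without the 2 farthest libraries. EPCAM and KRT18 gave r = 0.65 (permutation p = 0.0162, adjusted p = 0.159), rho 0.58 (permutation p = 0.0400, adjusted p = 0.302), 0.61 and 0.83 in the lower and upper series, and 0.63 without the 2 farthest libraries. SNAI2 and ZEB1 gave r = -0.64 (permutation p = 0.0170, adjusted p = 0.159), rho -0.57 (permutation p = 0.0468, adjusted p = 0.302), -0.73 and -0.16 in the lower and upper series, and -0.64 without the 2 farthest. KRT18 and ZEB1 gave r = -0.61 (permutation p = 0.0259, adjusted p = 0.182), rho -0.51 (permutation p = 0.0786, adjusted p = 0.356), -0.78 and -0.17 in the series, and -0.49 without the 2 farthest. VIM and KRT19, the filament genes of opposite states, gave r = -0.20 (permutation p = 0.508, adjusted p = 0.776), rho -0.14 (permutation p = 0.640, adjusted p = 0.779), -0.26 and -0.18 in the series and 0.13 without the 2 farthest. Within the groups the VIM and KRT19 values had opposite signs, -0.82 in vehicle and 0.46 in OCA libraries, and the difference between these was not tested.

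**Figure D4:**
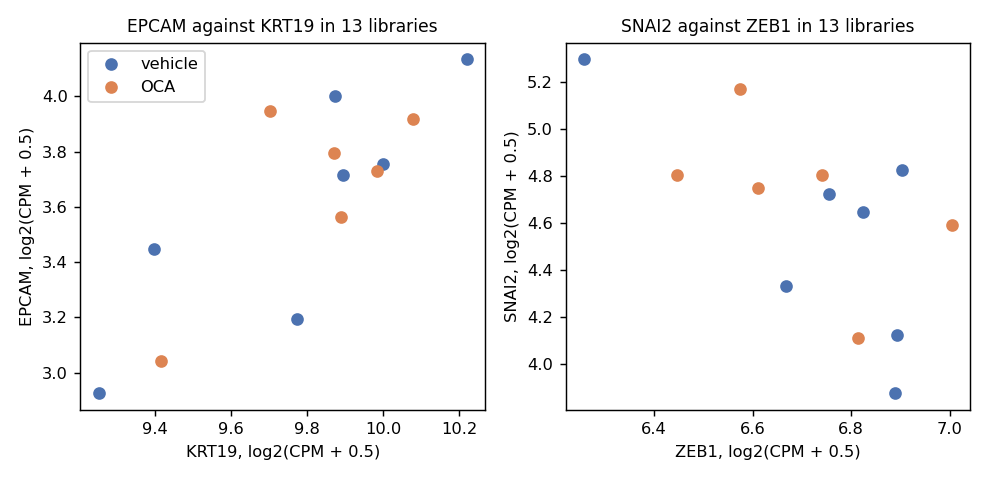
EPCAM against KRT19 (left) and SNAI2 against ZEB1 (right), each as log2(CPM + 0.5) with 1 point per library. EPCAM increases with KRT19 (r = 0.81) and SNAI2 decreases with ZEB1 (r = -0.64, not significant after adjustment).

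The extreme values of these markers came from single tumours of both groups. Vehicle replicate 4 had the highest CDH1, SNAI1 and SNAI2 and the lowest ZEB1 of all 13 libraries, with SNAI2 at 0.68 and ZEB1 at -0.46 relative to the mean of the libraries on the log2(CPM + 0.5) scale. Vehicle replicate 7 had the lowest EPCAM, KRT19 and SNAI2, at -0.70, -0.54 and -0.74 on that scale, while its VIM and ZEB1 were 0.17 above their means. OCA replicate 6 had the lowest CDH1 and VIM. OCA replicate 2 had the highest VIM, OCA replicate 4 the highest KRT18, and vehicle replicate 6 the highest EPCAM and KRT19.

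**Figure D5:**
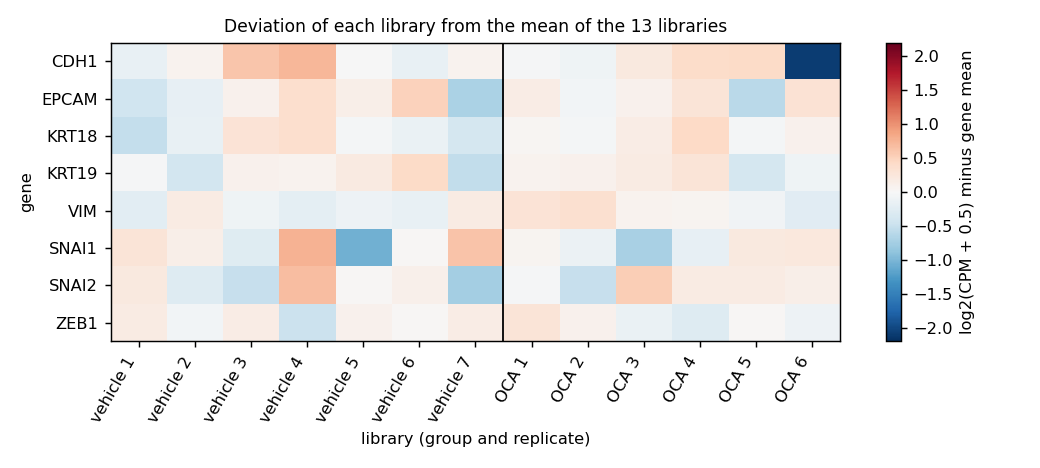
Deviation of each library from the mean of the 13 libraries for the 8 genes whose mean reached 1 CPM, as log2(CPM + 0.5) minus the gene's mean, with vehicle libraries left of the black line and OCA libraries right of it. Single libraries stand out, such as CDH1 at -2.09 in OCA replicate 6 and SNAI1 at -1.05 in vehicle replicate 5, and each row holds both colours on either side of the line.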

How the data were processed

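Per the submitters' processing notes, the tools were Salmon, STAR, FastQC and DESeq2 (no versions given) on human build GRCh38.p14. Per the file headers, the authors deposited an estimated count of reads and a TPM value for each transcript of each library. How mouse reads were treated, and the transcript annotation, are not given in the sources used here. Estimated counts were rounded and filtered by filterByExpr (minimum count 10, minimum total 15), scaled by TMM and tested for OCA against vehicle over all transcripts by the robust quasi-likelihood test of edgeR 4.0.16 (R 4.3.3, limma 3.58.1, DESeq2 1.42.0 for alternatives), with a threshold of 0.05. CPM uses TMM-scaled totals except in detection floors. Standard errors are the log2 fold change over the square root of F. The methods were tested on simulated data. Correlation tests used 100000 resamples. Leaving out each library, the label series, other scalings and filters, other tests and TPM were the alternatives; leaving out 3 libraries at a time and DESeq2 after the filter were chosen after seeing the data. The members and lists were chosen with earlier results of these data known. All 13 members are named. Other state genes and cell type markers fixed by symbol were not analysed here, because the reference used here is of the mouse and pairs no human transcript ID with a name; the part of host cells in any value was not tested.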

Additional observations from a re-analysis of the deposited data

Results flagged for a closer look

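Dixon's test at the 95% level was applied to the CPM of each member and to the 3 transcript shares in each group, and 2 of 30 tests found a library far from the others, where chance gives about 1.5. CDH1 was at 0 CPM in OCA replicate 6, and the next lowest OCA library was at 1.49 CPM. ZEB1 ENST00000320985 was at 70.2 CPM in vehicle replicate 4, and the next lowest vehicle library was at 101 CPM.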

How the results depend on the processing

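No member was called in any alternative that gives a count of called members (DESeq2 on the filtered table gave an adjusted p to 6 of the 12). The smallest adjusted p of a member over 306 alternative values was 0.669 (VIM ENST00000224237 without a low-count filter). For VIM, SNAI2 and ZEB1 these values include the fit of the summed transcripts, entered under each listed transcript. The estimates of KRT18 (log2 fold change 0.10 to 0.26), VIM ENST00000224237 (0.03 to 0.21), CDH1 (-1.12 to -0.01) and SNAI1 (-0.66 to -0.04) kept their sign in every alternative fit, the label series as a covariate included, and the other 8 tested members changed sign in at least 1. Within the separate label series, the mean TPM of CDH1 and of SNAI1 differed in opposite directions. The count of called transcripts over the whole table, 0, became 409 under DESeq2, 12 when that tool was given the filtered table, 1 with limma on log2(TPM + 0.1), 1 without the 3 libraries apart on the first component, and 0 to 1 with each library left out. Without the 3 vehicle libraries under 40000000 reads the log2 fold change was -0.28 for CDH2, -0.0066 and -0.15 for SNAI2 ENST00000020945 and ENST00000396822, 0.0015 for ZEB1 ENST00000320985 and -0.21 for ZEB1 ENST00000424869. That last transcript gave -0.62 with limma-voom. The sum of both ZEB1 transcripts, which is not an estimate for either alone, gave -0.046. With each library left out, the log2 fold change ran from -0.23 to 0.50 for CDH2, -0.052 to 0.15 for EPCAM, -0.045 to 0.12 for KRT19, 0.011 to 0.29 for SNAI2 ENST00000020945, -0.0045 to 0.32 for SNAI2 ENST00000396822, -0.22 to 0.52 for VIM ENST00000544301, -0.14 to -0.023 for ZEB1 ENST00000320985 and 0.035 to 0.73 for ZEB1 ENST00000424869. The causes of these changes were not tested. The difference in transcript share, OCA minus vehicle, was without the 3 shallower libraries -1.30 points for SNAI2 and -0.915 for ZEB1, and within the lower label series -0.00391 for VIM and -2.62 for ZEB1. With each library left out it ran from -0.696 to 1.19 for SNAI2, -0.00212 to 0.00485 for VIM and -0.254 to 1.66 for ZEB1. No share passed its threshold, with a smallest adjusted p of 0.2. The 1 correlated pair became 0 with library totals alone, and 0 to 1 with each library left out. No paired analysis was possible because replicate numbers follow accession order and pair no libraries. The mean depth was 22.1 estimated reads for CDH2, 41.2 for VIM ENST00000544301, 64.5 for SNAI1 and 80.3 for CDH1, and the fitted spread of each between libraries exceeded its counting error.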
